A study of Homo sapiens with 4 samples.

Results

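Amino acids enter a cell through families of solute carriers in the plasma membrane, and 10 of these transporters are described here in HEK293 cells depleted of CNOT4. They were chosen by gene symbol: SLC7A11, SLC3A2, SLC7A5, SLC7A1, SLC7A6, SLC1A4, SLC1A5, SLC38A1, SLC38A2 and SLC6A9. Each of the 10 symbols occurred once among the 20457 features of the tables. HEK293 is an established human cell line of embryonic kidney origin. Cells received siRNA at 10 nM and were collected after 72 h. The 2 siControl libraries came from cells given a negative control siRNA and labelled wild type, and the 2 siCNOT4 libraries from cells given siRNA against CNOT4 and labelled as a knockdown. CNOT4 is a ubiquitin ligase found with the CCR4-NOT deadenylase complex, and the stated question was its part in the effect of codon usage on gene expression. The labels do not say whether replicates were separate cultures or how many siRNA sequences were used, so p-values measure the spread between these libraries, which may be technical.

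SLC3A2 is the heavy chain (CD98, 4F2hc) of a group of paired transporters: it carries a light chain of the SLC7 family to the cell surface, and the light chain forms the transport path. SLC7A5 (LAT1) exchanges large neutral amino acids such as leucine, SLC7A6 (y+LAT2) exchanges cationic for neutral amino acids, and SLC7A11 (xCT) imports cystine in exchange for glutamate and so feeds glutathione synthesis. SLC1A4 (ASCT1) and SLC1A5 (ASCT2) are sodium-dependent exchangers of small neutral amino acids, and SLC1A5 also exchanges glutamine. SLC38A1 and SLC38A2 (SNAT1 and SNAT2) take up glutamine and other neutral amino acids with sodium. SLC7A1 (CAT1) carries arginine and lysine, and SLC6A9 (GlyT1) carries glycine. The transcription factor ATF4, made when amino acids run short, is known to induce a number of these genes through C/EBP-ATF response elements.

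Levels are given in TPM, a length-normalized share of the listed mRNA that sums to the same total in each library. Whole reads could be worked out from the steps of the TPM values, and gave 25.7 to 29 in units of 1e6 assigned reads per library, with 269 to 13890 reads for each transporter in each library. CNOT4 itself had 6.43 and 4.73 TPM in siControl and 3.38 and 3.81 TPM in siCNOT4, with no overlap, and its difference did not pass the test (log2 difference -0.51, SE 0.26, limma adjusted p = 0.184). It passed with TMM scaling (limma adjusted p = 0.0359), quantile normalization (0.0252), removal of each library's length and GC trend (0.0113) and limma-voom (0.0392 by library size and 0.0258 with TMM). It did not pass with a pseudocount of 0.1 (limma adjusted p = 0.203), no filter on low values (0.219) or the replicate number as a block (0.355). A minimum mean of 5 TPM left CNOT4 out of the test. With 1 library left out its difference lay between -0.7 and -0.32. Of the HEK293 markers, the keratins KRT8 and KRT18 lay between 193 and 360 TPM and the neurofilament gene NEFL between 307 and 384 TPM. The HEK293 markers PAX2 (1.1 to 1.91 TPM) and NEFM (0.412 to 0.916 TPM) were low. The blood, liver and endothelial markers PTPRC, ALB and PECAM1 stayed at or below 0.255 TPM. The fibroblast marker COL1A1 had 1.39 and 0.906 TPM in siControl against 5.09 and 6.60 TPM in siCNOT4, and the HEK293 marker VIM 917 and 650 against 369 and 354 TPM. Their part in the results was not tested. Differences are siCNOT4 minus siControl on the log2(TPM + 1) scale. Their median over 14208 tested features was 0.50, so values relative to that median are given too. The siControl replicates differed by a median of 0.38 (replicate 1 higher) and the siCNOT4 replicates by -0.03.

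Of the 10 transporters, 5 had both siCNOT4 libraries below both siControl libraries, namely SLC6A9, SLC1A5, SLC7A5, SLC3A2 and SLC1A4, against 10.6% of all tested features. In the other 5 the groups overlapped, and 0 of 10 lay wholly above siControl, against 66.4% of all tested features. At a limma adjusted p under 0.05, 1 transporter fell (SLC1A5) and 0 rose, against 1.30% and 11.3% of all tested features. At an unadjusted p under 0.05 the count was 4 of 10, near the 42.0% of all tested features. The median difference of the 10 was -0.38, against 0.50 for all tested features, and leaving out siControl replicate 1 or replicate 2 moved it to 0.00 or -0.72. Each of the 10 lay below the median of all tested features for TPM as deposited.

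**Figure D1:**
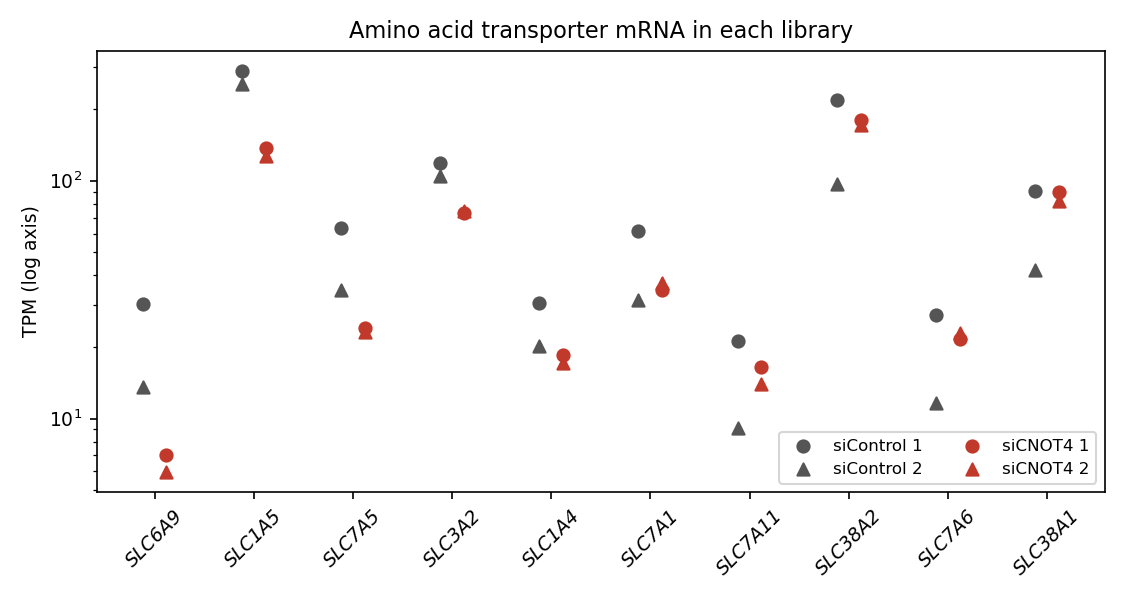
TPM (log axis) of each of the 10 transporters in the 4 libraries, grey for siControl and red for siCNOT4, with circles for replicate 1 and triangles for replicate 2. The red points lie below both grey points for SLC6A9, SLC1A5, SLC7A5, SLC3A2 and SLC1A4, and between or beside them for the other 5.

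**Figure D2:**
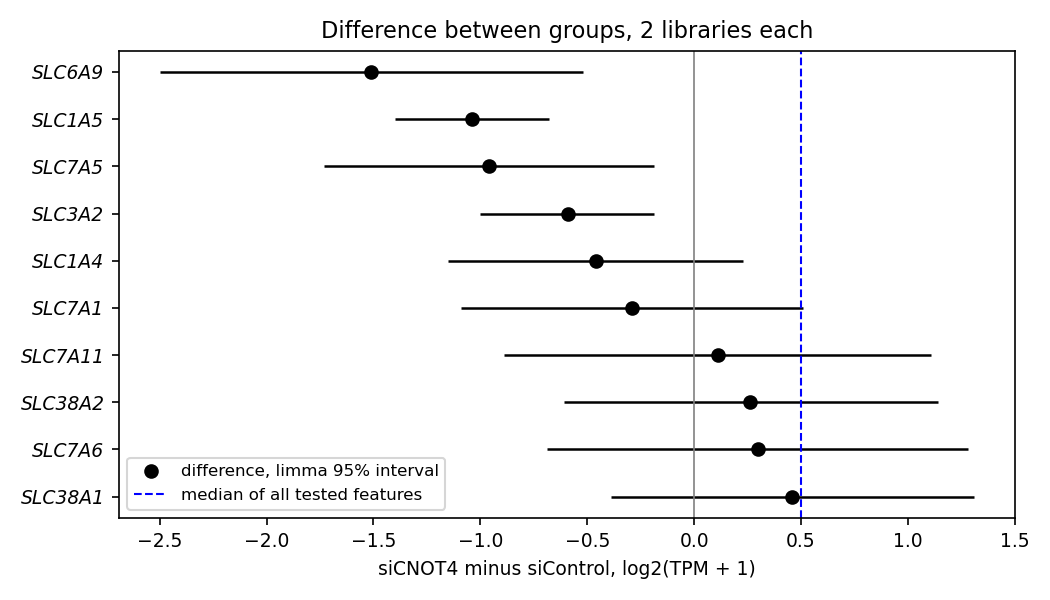
Difference between siCNOT4 and siControl on the log2(TPM + 1) scale with limma's 95% interval (n = 2 per group). The dashed line is the median of all tested features, 0.50, and the 10 points run from -1.51 for SLC6A9 to 0.46 for SLC38A1.

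The promoters of these genes were searched for the letters of the C/EBP-ATF response element, because that element is the known link between amino acid shortage and transporter genes. The RefSeq promoter table (GRCh38.p14, 250 bases before to 50 after a start) held 15 windows for 9 of the 10 transporters, SLC7A11 not among them. TGATGNAA, on either strand, occurred in 1 window each of 5 transporters, and in windows of 4.46% of all 27305 genes of the table (3.62% of its 35116 windows). The 4 windows below carry it in capitals (on the minus strand of the window for SLC1A4 and SLC3A2). SLC1A4, SLC3A2 and SLC1A5 are shown because their siCNOT4 libraries lay below siControl, and SLC38A1 because it holds the same letters while its groups overlapped. Each of these 4 genes also had at least 1 window further upstream without the letters. For SLC1A5 these were chr19:46787244-46787543 and chr19:46788545-46788844. Which start HEK293 cells use was not tested.
SLC1A4 (chr2:64989149-64989448, plus strand): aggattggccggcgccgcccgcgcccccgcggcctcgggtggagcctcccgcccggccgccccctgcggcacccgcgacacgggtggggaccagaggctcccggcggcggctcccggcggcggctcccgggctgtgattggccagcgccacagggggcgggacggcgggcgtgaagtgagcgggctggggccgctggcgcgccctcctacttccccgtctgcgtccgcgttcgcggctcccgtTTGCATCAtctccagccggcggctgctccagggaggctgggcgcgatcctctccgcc
SLC3A2 (chr11:62881449-62881748, plus strand): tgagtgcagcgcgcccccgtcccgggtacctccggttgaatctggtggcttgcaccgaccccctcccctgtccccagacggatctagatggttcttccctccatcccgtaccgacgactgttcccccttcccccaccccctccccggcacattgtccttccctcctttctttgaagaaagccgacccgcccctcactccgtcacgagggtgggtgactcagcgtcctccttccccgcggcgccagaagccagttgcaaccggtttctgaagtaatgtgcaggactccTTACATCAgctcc
SLC1A5 (chr19:46784765-46785064, minus strand): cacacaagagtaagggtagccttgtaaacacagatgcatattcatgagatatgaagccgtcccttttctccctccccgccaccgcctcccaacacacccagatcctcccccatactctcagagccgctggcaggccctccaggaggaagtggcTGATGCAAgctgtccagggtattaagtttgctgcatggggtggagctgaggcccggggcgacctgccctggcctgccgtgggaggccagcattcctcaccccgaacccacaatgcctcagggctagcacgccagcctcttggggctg
SLC38A1 (chr12:46266467-46266766, minus strand): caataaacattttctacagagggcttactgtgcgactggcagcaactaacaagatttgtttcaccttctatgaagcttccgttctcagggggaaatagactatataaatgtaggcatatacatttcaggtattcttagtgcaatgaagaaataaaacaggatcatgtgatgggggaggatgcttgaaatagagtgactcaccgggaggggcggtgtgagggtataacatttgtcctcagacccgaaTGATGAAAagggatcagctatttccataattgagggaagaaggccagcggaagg
A further match was in SLC7A1 (TGATGAAA), whose groups overlapped, and the windows of SLC6A9 and SLC7A5, whose groups did not, held none. The letters TGACNNNGC of the antioxidant response element occurred in windows of SLC3A2, SLC7A1, SLC7A6, SLC7A5 and SLC1A5 (16.1% of all genes), and the E-box CACGTG in windows of SLC7A5 and SLC1A5 (8.77% of all genes). Such matches describe the sequence and are not evidence of binding.

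The sodium-dependent exchanger SLC1A5 had the highest mean level of the 10 in siControl and the smallest adjusted p. It had 290 and 256 TPM in siControl and 137 and 127 TPM in siCNOT4, or 273 ± 24.6 against 132 ± 6.78 (SD, n = 2 each), a mean 51.6% lower. The log2 difference was -1.04 (SE 0.15, limma adjusted p = 0.0244), and 84 of the 14208 tested features had a lower value. It was lower in 4 of 4 pairings across the groups. The call was lost without a filter on low values (adjusted p = 0.0574) and without either siCNOT4 library (0.0637 and 0.122), with a difference between -1.6 and -0.95 in every setting tried. Its relative SLC1A4 had 30.5 and 20.2 TPM in siControl against 18.5 and 17.1 TPM in siCNOT4. The groups did not overlap, but the difference of -0.46 (SE 0.28) did not pass the test (limma adjusted p = 0.243). Relative to the median of all features SLC1A4 was lower by a log2 value of -0.96. After TMM scaling, which aligns libraries on a trimmed mean of log ratios, its limma adjusted p was 0.0347. SLC1A4 also passed with quantile normalization (limma adjusted p = 0.0261), trend removal (0.0101) and limma-voom with TMM (0.029). It did not pass with no filter (limma adjusted p = 0.285), the replicate number as a block (0.402) or limma-voom by library size (0.0523). Leaving out siControl replicate 1 or 2 moved the difference of SLC1A4 to -0.18 or -0.75. The ratio of SLC1A5 to SLC1A4 within a library came to 9.51 and 12.6 for siControl against 7.40 and 7.42 for siCNOT4.

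The heavy chain SLC3A2 had 119 and 105 TPM in siControl and 73.1 and 74.3 TPM in siCNOT4. Its siControl values differed by 0.19 on the log2 scale, less than the log2 difference of -0.59 between groups (SE 0.17, limma adjusted p = 0.0603). With TMM scaling, quantile normalization or removal of each library's length and GC trend, the limma adjusted p was 0.0312, 0.0248 and 0.0101, while with no filter on low values it was 0.0817 and without either siCNOT4 library 0.494 and 0.489. Its main light chain in siControl, SLC7A5, had 63.4 and 34.6 TPM in siControl and 24 and 23.2 TPM in siCNOT4. Each siCNOT4 library was lower than each siControl library, yet the siControl libraries differed from each other by 0.86, against a difference of -0.96 between groups (SE 0.32, limma adjusted p = 0.0796). The same 3 alternatives gave limma adjusted p values of 0.0298, 0.0254 and 0.0107 for SLC7A5, against 0.175 with no filter and 0.377 and 0.406 without either siCNOT4 library. Without siControl replicate 1 or 2 the difference of SLC7A5 was -0.53 or -1.39. Its pseudogene copies SLC7A5P1 and SLC7A5P2 were listed at 0.791 TPM or less in each library.

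In the other light chains among the 10, the groups overlapped for TPM as deposited. SLC7A6 had 27.3 and 11.6 TPM in siControl and 21.6 and 22.8 TPM in siCNOT4, so that the siCNOT4 values lay between the siControl values (difference 0.30, SE 0.41, limma adjusted p = 0.582). The cystine transporter SLC7A11 likewise had 21.2 and 9.12 TPM in siControl with 16.4 and 14.0 TPM in siCNOT4 between them. Its group means were 15.2 ± 8.53 and 15.2 ± 1.72 TPM (SD, n = 2 each), and its 95% interval of -0.89 to 1.11 for the log2 difference allows a change of about that size either way. With the length and GC trend removed SLC7A11 fell (difference -0.94, limma adjusted p = 0.0120). It did not pass with TMM scaling (-0.40, limma adjusted p = 0.329) or quantile normalization (-0.49, 0.177). Without siControl replicate 1 the difference of SLC7A11 was 0.67, and without siControl replicate 2 it was -0.46. Relative to the median of all features in the same fits, these were -0.035 and -0.75. SLC7A6 overlaps SLC7A6OS on the opposite strand, which had 16.6 to 23.6 TPM, and whether the counting used strand is not given in the sources used here. SLC7A8 (LAT2), a partner of SLC3A2 outside the 10, rose from 2.51 and 1.46 to 5.44 and 6.17 TPM (log2 difference 1.21, SE 0.27, limma adjusted p = 0.0439). SLC7A7 (y+LAT1) had 0.596 and 0.700 against 1.04 and 1.33 TPM, and SLC7A10 had 2 and 1 reads in siControl against 29 and 22 in siCNOT4. Both were below the mean of 1 TPM required for the test.

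Among the mRNAs of the 6 SLC3A2 partners, SLC7A5 made up 55.1% and 60.1% of the summed TPM in siControl and 34.5% and 33.9% in siCNOT4. That is 57.6 ± 3.59 against 34.2 ± 0.410% (SD, n = 2 each), a gap between groups of -23.4 percentage points. The shares of the other 5 partners were each higher in both siCNOT4 libraries than in both siControl libraries. SLC7A6 had 23.8% and 20.2% against 31.0% and 33.4%, SLC7A11 had 18.4% and 15.9% against 23.5% and 20.4%, and SLC7A8 had 2.18% and 2.54% against 7.79% and 9.02%. SLC7A6 and SLC7A5 were thus nearly level in siCNOT4, where the ratio of SLC7A5 to SLC7A6 was 1.11 and 1.02, against 2.32 and 2.98 in siControl. The log2 ratio differed by -1.31 between groups and by 0.36 between siControl replicates. Light chain TPM summed and divided by SLC3A2 TPM came to 0.963 and 0.549 for siControl and lay between these, at 0.954 and 0.921, for siCNOT4. For 10 ratios among these genes, the two-sided exact permutation p was 0.333 wherever the groups did not overlap (0.416 adjusted over 10), the smallest that 2 libraries against 2 allow, and 1.00 for the summed ratio. Each of the 6 shares also had an exact permutation p of 0.333.

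**Figure D3:**
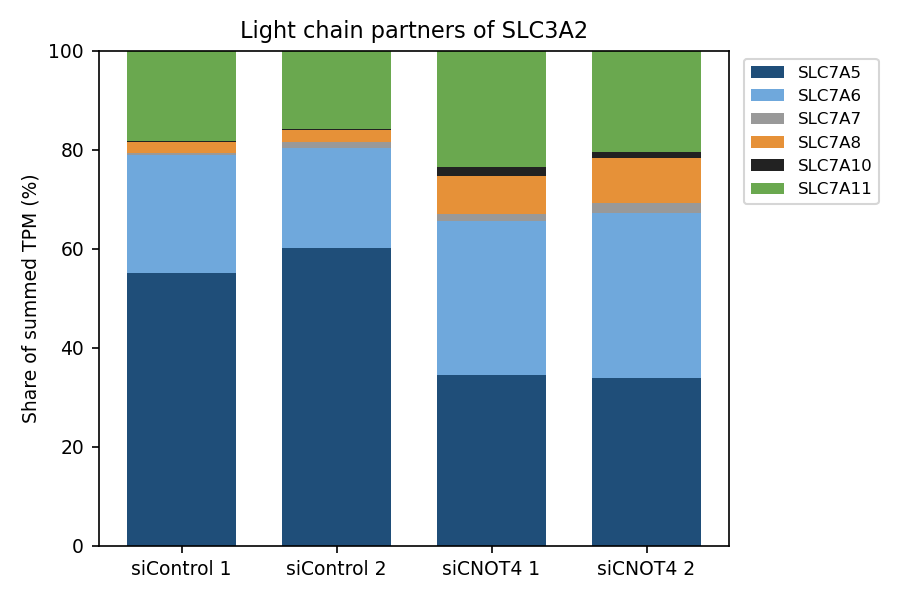
Share (%) of the summed TPM of 6 light chain partners of SLC3A2 in each library. The SLC7A5 segment is 55.1% and 60.1% in the siControl bars and 34.5% and 33.9% in the siCNOT4 bars.

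The sodium-coupled glutamine transporters SLC38A1 and SLC38A2 were among the 4 highest of the 10 mRNAs in either group. SLC38A2 had 219 and 97.1 TPM in siControl and 180 and 171 TPM in siCNOT4. SLC38A1 had 90.5 and 42.2 TPM in siControl and 89.4 and 82.1 TPM in siCNOT4. For both genes the siControl replicates differed by ratios of 2.26 and 2.14, while the siCNOT4 replicates differed by 1.05 and 1.09. The differences between groups, 0.26 (SE 0.36) and 0.46 (SE 0.35), did not pass the test (limma adjusted p = 0.582 and 0.329) and had the opposite sign after TMM scaling (-0.28 and -0.08). SLC38A2 exceeded SLC38A1 by a ratio of 2.42 and 2.30 for siControl and of 2.01 and 2.09 for siCNOT4. It differed by -0.20 on the log2 scale between groups, against 0.08 between the siControl replicates.

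The arginine transporter SLC7A1 had 61.7 and 31.6 TPM in siControl and 34.8 and 37.1 TPM in siCNOT4, with overlapping groups (difference -0.29, SE 0.33, limma adjusted p = 0.507). Without siControl replicate 1 the value was 0.18, and with the length and GC trend removed it was -0.98 (limma adjusted p = 0.0107). SLC7A1 did not pass with TMM scaling (limma adjusted p = 0.0632) or quantile normalization (0.0653). Nor did it pass with limma-voom by library size (limma adjusted p = 0.149) or with TMM (0.0558). The glycine transporter SLC6A9 had the lowest difference of the 10. It had 30.2 and 13.6 TPM in siControl and 7.05 and 5.97 TPM in siCNOT4, or 21.9 ± 11.8 against 6.51 ± 0.757 (SD, n = 2 each). These rest on 1445, 737, 321 and 269 reads, with exact Poisson 95% intervals for counting error of 12.6 to 14.6 TPM in siControl replicate 2 and 6.30 to 7.86 TPM in siCNOT4 replicate 1. The log2 difference was -1.51 (SE 0.41, limma adjusted p = 0.0582), and 23 of the 14208 tested features were lower. SLC6A9 passed with TMM scaling (limma adjusted p = 0.0298), quantile normalization (0.0219) and trend removal (0.0198). It did not pass with no filter (0.143) or without either siCNOT4 library (0.261 and 0.346), and leaving out siControl replicate 1 or 2 moved the difference to -0.96 or -2.06. CCDC24 overlaps SLC6A9 on the opposite strand, and it rose from 3.01 and 3.63 to 11.3 and 12.7 TPM (limma adjusted p = 0.0285).

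Levels per length placed the 10 transporters in a different order in the 2 groups. In siCNOT4 the means ran from SLC38A2 (176 TPM) through SLC1A5 (132), SLC38A1 (85.8), SLC3A2 (73.7), SLC7A1 (35.9), SLC7A5 (23.6), SLC7A6 (22.2), SLC1A4 (17.8) and SLC7A11 (15.2) to SLC6A9 (6.51). No 2 neighbours in that order overlapped between replicates. In siControl the order was SLC1A5 (273 TPM), SLC38A2 (158), SLC3A2 (112), SLC38A1 (66.4), SLC7A5 (49.0), SLC7A1 (46.6), SLC1A4 (25.4), SLC6A9 (21.9), SLC7A6 (19.5) and SLC7A11 (15.2). There SLC1A5 stood clear of its neighbour, while SLC38A2 overlapped SLC3A2 and the ranges from SLC1A4 to SLC7A11 overlapped. Summed over the 10, siControl had 954 and 620 TPM and siCNOT4 602 and 575 TPM. SLC1A5 took 30.4% and 41.2% of it in siControl and 22.7% and 22.1% in siCNOT4.

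Because the study concerned codon usage, the transporters were set beside their GC3, which is the percentage of codons in the coding sequence whose last base is G or C (GENCODE 29). GC3 ranged from 41.7% in SLC38A2, 46.1% in SLC38A1 and 47.7% in SLC7A11 to 79.1% in SLC1A5, 80.5% in SLC6A9 and 90.3% in SLC7A5. The 3 transporters lowest in GC3 had differences of 0.26, 0.46 and 0.11, and the 3 highest had -1.04, -1.51 and -0.96. Across the 10 genes the Spearman correlation of GC3 with the difference was -0.87, against -0.34 across 12850 tested features. All values come from the same 4 libraries. GC3 went with length among the 10 (-0.60), and length with the difference (0.78). When tested features were divided into 5 bins of GC3, the median difference was 0.62 in the bin of SLC38A1, SLC38A2 and SLC7A11 and 0.27 in that of SLC1A5, SLC6A9 and SLC7A5. Each transporter lay below the median of its own bin, by -0.07 for SLC7A6 and -0.16 for SLC38A1 up to -1.31 for SLC1A5 and -1.78 for SLC6A9.

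Length also went with the gap between the siControl replicates. The lengths implied by the TPM values ran from 2902 nt for SLC3A2 and 3206 nt for SLC1A5 to 9648 nt for SLC7A11. The siControl replicates differed by 0.19 and 0.18 in the first pair, by 1.13 in SLC7A11, and by 0.95 to 1.17 in the 4 others longer than SLC1A4 (4778 nt) (Spearman 0.62 across the 10, and 0.59 across 14208 features). The median gap in the longest of 5 bins of features was 0.77. The gap was as large in SLC6A9 (1.10), which has 3692 nt. In 6 of 10 transporters the siControl gap was larger than the group difference. These were SLC7A11, SLC7A1, SLC7A6, SLC1A4, SLC38A1 and SLC38A2. The part of length or RNA quality in these gaps was not tested.

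**Figure D4:**
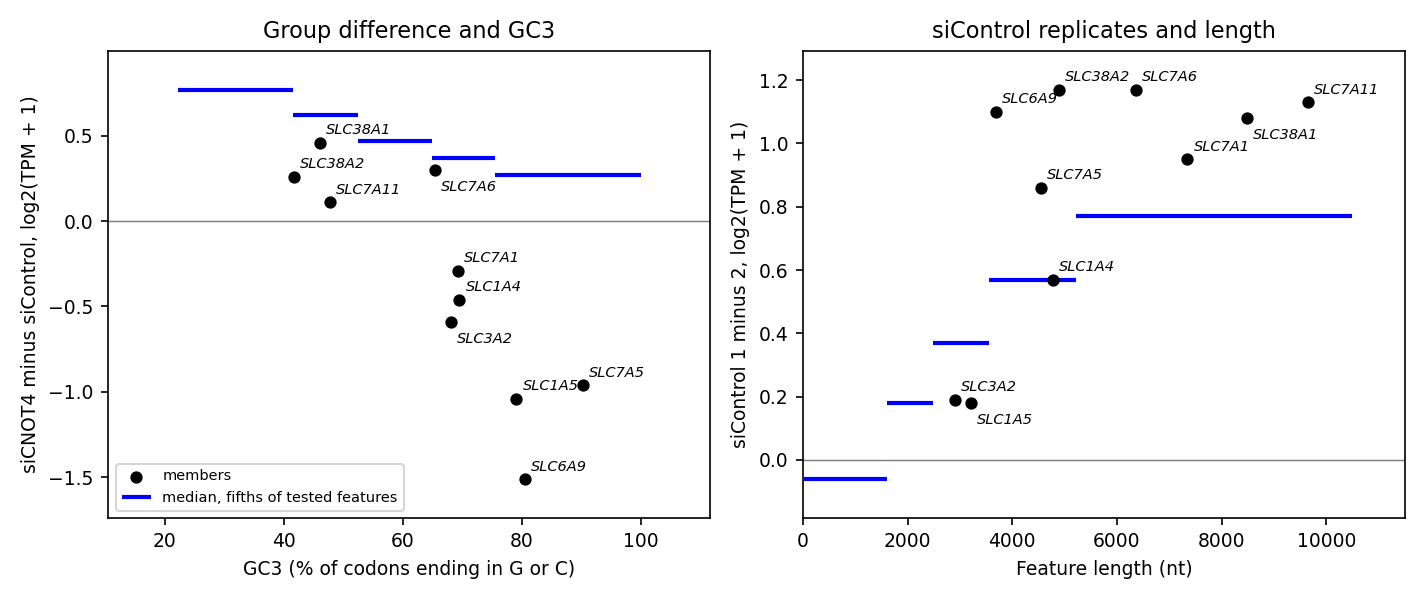
Left, difference between groups (log2(TPM + 1)) against GC3 (%) for the 10 transporters. Right, siControl replicate 1 minus replicate 2 (log2(TPM + 1)) against feature length (nt). Blue lines are medians of 5 bins of the tested features, the longest bin being drawn over part of its range, and the transporters lie below the lines on the left and mostly above them on the right.

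The position of each transporter relative to the median of all features was compared over 15 settings of scaling, filter, block, test and left-out library. SLC6A9 ranged from -2.35 to -1.67, SLC7A5 from -1.68 to -1.24, SLC1A5 from -1.66 to -1.23, SLC3A2 from -1.21 to -0.91, SLC1A4 from -1.04 to -0.78 and SLC7A1 from -1.06 to -0.53, below 0 in every one. SLC7A11 ranged from -0.94 to -0.035. SLC7A6 (-0.58 to 0.17), SLC38A2 (-0.61 to 0.14) and SLC38A1 (-0.37 to 0.30) had either sign. With TMM scaling or quantile normalization 5 of 10 fell, against 4.33% and 8.23% of all tested features, and with the length and GC trend removed 7 fell, against 13.3%. With limma-voom on the whole reads 4 fell by library size, against 3.04%, and 5 with TMM, against 5.87%. The 5 in the TMM, quantile and limma-voom TMM fits were the ones whose groups did not overlap. Without siControl replicate 1, 4 fell and 4 rose, against 8.73% and 70.9%, and without siControl replicate 2, 9 fell, against 10.3%. Without either siCNOT4 library 0 were called. With the replicate number as a block 3 fell, against 2.20%, and 8 with the block and the trend removed, against 16.2%. The share of all called features that were higher also depended on scaling, with 1608 higher and 184 lower for TPM as deposited, 632 and 615 with TMM scaling, 1010 and 1169 with quantile normalization, and 1589 and 1832 after trend removal. For TPM as deposited, 5 of 10 transporters lay wholly below siControl, against 10.6% of all features. That count was 6 with TMM (34.4% of all features), 7 with quantile normalization (33.4%) and 9 after trend removal (36.4%). In each of these 0 transporters lay wholly above siControl. The shares of all features wholly above were 66.4% as deposited, 35.3% with TMM, 36.2% with quantile normalization and 35.4% after trend removal.

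**Figure D5:**
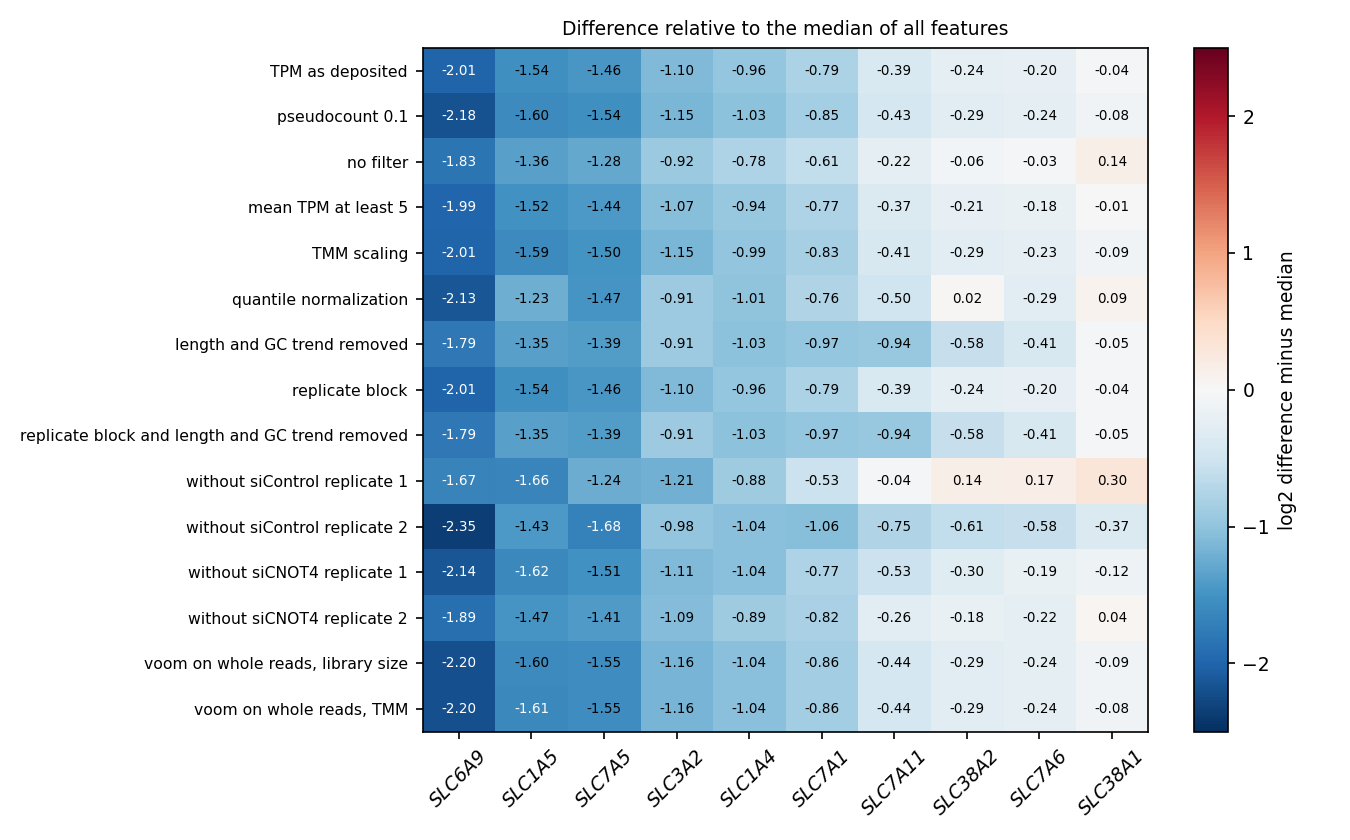
Log2 difference of each transporter minus the median difference of all tested features (colour and printed value) under 15 settings. SLC6A9, SLC1A5, SLC7A5, SLC3A2, SLC1A4 and SLC7A1 are below 0 in each row, and SLC38A2, SLC7A6 and SLC38A1 change sign between rows.

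Of 31 further SLC1, SLC3, SLC6, SLC7 and SLC38 genes listed, 13 reached a mean of 1 TPM. Of these, 0 fell, 4 rose and 9 did not pass, against 1.30% falling and 11.3% rising among all tested features. The 9 of 13 wholly above siControl (69.2%) were near the 66.4% of all tested features, and the median difference was 0.98. The calls numbered 11 and 8 without siControl replicate 1 or 2 (79.6% and 57.5% of all tested features were then called), and 1 without either siCNOT4 library (3.35% and 3.17%). Genes that reached the minimum through one group had to differ, so these counts do not describe the families as a whole, and SLC6A17 is one of them. The examples were SLC6A17, a vesicular neutral amino acid carrier (0.747 and 0.350 against 5.09 and 6.24 TPM, log2 difference 2.11, limma adjusted p = 0.0227), SLC7A8, given above, and SLC38A3 (2.20 and 1.11 against 4.69 and 4.85 TPM, 1.15, 0.0475). Among 9 tested carriers of other amino acid families, 2 rose and 0 fell, and the 6 wholly above siControl (66.7%) were again near the 66.4% of all features. The lysosomal SLC36A1 had 8.38 and 4.63 against 17.3 and 19.6 TPM (limma adjusted p = 0.0475), and the glutamate carrier SLC17A7 had 0.130 and 0.206 against 2.42 and 2.26 TPM (limma adjusted p = 0.0227). Like SLC6A17, SLC17A7 reached the minimum only through siCNOT4, so it had to differ. SLC43A1 (LAT3), another leucine carrier chosen here after its values were seen, had 15.9 and 14.7 against 7.52 and 7.02 TPM and did not pass (limma adjusted p = 0.0578). All other features with an SLC symbol (221 tested of 363) had a median of 0.60, 36 higher and 1 lower.

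Genes of the amino acid response were mostly on the low side. Of 29 tested, 12 fell, 0 rose and 17 did not pass, with a median of -0.61 against 0.50 for all features. Among all tested features 1.30% fell and 11.3% rose. The calls numbered 22 and 27 without siControl replicate 1 or 2 (79.6% and 57.5% of all features were then called), and 7 without either siCNOT4 library (3.35% and 3.17%). The list was drawn up with earlier results of these libraries known, so its direction is not independent evidence. EIF4EBP1, a repressor of cap-dependent translation, had 409 and 501 TPM in siControl against 32.5 and 30.9 in siCNOT4. The stress factor NUPR1 had 43.7 and 56.4 against 7.91 and 5.31 TPM, and PYCR1, an enzyme of proline synthesis, 94.6 and 70.5 against 22.7 and 21.0 TPM. CHAC1 and CBS, below, are also in this list. The log2 differences of the first 3 were -3.80, -2.76 and -1.86 (limma adjusted p = 0.00534, 0.0227 and 0.0227). Of 13 genes that use cystine and glutathione, 3 fell (23.1%, against 1.30% of all features) and 1 rose (7.69%, against 11.3%). Without either siCNOT4 library 0 were called, and without siControl replicate 1 or 2 the count was 12 and 7. CHAC1, which degrades glutathione, had 47.5 and 41.7 against 13.8 and 15.7 TPM (limma adjusted p = 0.0250), and GCLC, the catalytic subunit of the first step of glutathione synthesis, rose from 50.0 and 35.2 to 78.9 and 83.2 TPM (limma adjusted p = 0.0481). The others that fell were GPX1 (limma adjusted p = 0.0489) and CBS (0.0474). Of 21 tested NRF2 target genes, 4 rose and 0 fell, at 19.0% against 11.3% of all features, and without siCNOT4 replicate 1 or 2 the count was 1 and 0, against 17 and 14 without siControl replicate 1 or 2. The median difference of these 21 was 0.35, against 0.50 for all features, and 11 of them lay below that median of all features. Of the 21, 57.1% lay wholly above siControl, against 66.4% of all features, so the list as a whole was not raised beyond other features. Those that rose included NQO1 with 3.78 and 4.20 against 9.69 and 10.9 TPM (limma adjusted p = 0.0439), AKR1C1 (0.0244) and OSGIN1 (0.0316). OSGIN1 had 0.438 and 0.701 TPM in siControl against 2.13 and 3.13 TPM in siCNOT4. It reached the minimum mean of 1 TPM only through siCNOT4, so it had to differ. SLC7A11 is a known target of both ATF4 and NRF2, and its own values are given above.

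The features nearest to 2 of the transporters were taken by the distance between log2 profiles over the 4 libraries, each centred on its own mean, among 11395 features with a mean of at least 5 TPM. Those nearest to SLC7A11 were LPAR3 (distance 0.0537), ZNF521 (0.0704), PTPRK (0.0866), LEPR (0.0924) and XPOT (0.108). LPAR3 had 17.4 and 7.39 TPM in siControl and 13.8 and 12 TPM in siCNOT4, with siCNOT4 between the siControl replicates as in SLC7A11. Those nearest to SLC3A2 were DBN1 (0.0461), TMEM177 (0.0558), PRSS23 (0.0570), BOLA3-AS1 (0.0591) and GPN3 (0.0593). DBN1 had 100 and 89.6 TPM in siControl and 60.6 and 60.8 TPM in siCNOT4. A profile over 4 libraries holds little information, and many features can lie this near.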

How the data were processed

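RNA of 4 HEK293 libraries was measured by sequencing poly(A)-selected, stranded libraries, per the labels' protocols. The authors deposited 1 table of TPM per library, per the file headers, each summing to 1000000 over 20457 gene symbols. The submitters' processing notes name FastQC 0.11.2, STAR 2.5.3a, featureCounts and the build hg19, while the annotation and the use of strand are not given in the sources used here. Titles gave the groups.

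Values were taken as log2(TPM + 1), which understates changes of low genes, and features with a mean of at least 1 TPM were compared with limma 3.58.1 (R 4.3.3; lmFit, eBayes with trend, 2 libraries against 2, no covariates, prior degrees of freedom 4.22). P values were adjusted by Benjamini-Hochberg over 14208 features, with a threshold of 0.05, and the step was tested on simulated data. These had the means of the data and its spreads shuffled among features. Of 200 features changed by a log2 value of 1, 0 were called, against 96 at 2 and 149 at 3. Unlike the data, the simulation had the same spread in both groups and changed only 200 of 14208 features, with no shift of the median. The fit of the data did call changes near 1, such as SLC1A5 (-1.04), so the simulated counts do not give its power. A change near 1 that was not called is still not evidence of no change. TPM divided by the step of 1 read gave whole reads in all libraries, within 0.01 reads, for 100.00% of 19734 features above 0. They were used for depth, exact Poisson 95% intervals (which cover counting error only) and limma-voom. GC3 and the length and GC trend came from GENCODE 29 transcripts (18438 features matched by symbol, 965 through another symbol). Some of these lengths differ from those implied by the TPM values. They were 2599 against 8484 nt for SLC38A1, 2330 against 3692 nt for SLC6A9 and 2222 against 2902 nt for SLC3A2. For CNOT4 they were 3563 against 5388 nt, while for SLC7A11 they were 9645 and 9648 nt. The effect of this on the trend-removed values was not tested.

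The transporters and the lists were chosen with earlier results of these data known. Named genes were the 10 transporters, CNOT4, the other SLC3A2 light chains, the 3 called genes with the largest differences of each sign per list (without calls, the 2 of highest mean TPM) and the 5 nearest profiles of SLC7A11 and SLC3A2. SLC43A1, SLC38A9 and the features overlapping a transporter were named outside this rule. Alternatives were a pseudocount of 0.1, no filter, a mean of at least 5 TPM, TMM scaling, quantile normalization, trend removal, a replicate block and leaving out each library. Limma-voom and the counts of non-overlapping groups after scaling were added after seeing the data.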

Additional observations from a re-analysis of the deposited data

How the results depend on the processing

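The count of called features was 1792, and 558 with a pseudocount of 0.1, 147 at a mean of at least 5 TPM, 3421 with the length and GC trend removed, and 450 to 11311 when 1 library was left out (11311 without siControl replicate 1, 8171 without siControl replicate 2, 476 and 450 without siCNOT4 replicates 1 and 2). With 1 library in a group, that library is assumed to vary like the other group. With no filter limma called 0 of 20457 features, with 6701 at an unadjusted p under 0.05, and limma-voom with library sizes and the filter called 2078. Of the 10 transporters 1 was called, against 0 with no filter, 5 with TMM scaling, 5 with quantile normalization, 7 after trend removal, 4 and 5 with limma-voom (library size and TMM), and 0 to 9 when 1 library was left out: 8 without siControl replicate 1 (4 lower and 4 higher), 9 without siControl replicate 2, and 0 without either siCNOT4 library.

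The replicate numbers 1 and 2 occur in both groups. Their gaps correlated by 0.17 across features, which with 2 pairs does not show that they pair the samples. With the number as a replicate block, 3655 features and 3 transporters were called (SLC6A9, SLC7A5 and SLC1A5), and with the block and trend removal 4239 and 8. The light chain to heavy chain log2 difference of 0.37 was 0.37 with the replicate block, 0.24 with 3 partners, and -0.04 to 0.77 with 1 library left out, the lowest without siControl replicate 2.

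Differences that changed sign were as follows, and the cause was not tested. TMM scaling gave -0.40 for SLC7A11, -0.22 for SLC7A6, -0.08 for SLC38A1 and -0.28 for SLC38A2. Quantile normalization gave -0.49 for SLC7A11 and -0.27 for SLC7A6. Trend removal, with or without the replicate block, gave -0.94 for SLC7A11, -0.41 for SLC7A6, -0.05 for SLC38A1 and -0.58 for SLC38A2. For SLC38A1 it used a GENCODE length of 2599 nt, against 8484 nt implied by the TPM values. Limma-voom gave -0.16 and -0.43 for SLC7A11 (library size and TMM) and -0.02 and -0.28 for SLC38A2, and with TMM -0.23 for SLC7A6 and -0.07 for SLC38A1. Leaving out 1 library gave -0.46 to 0.67 for SLC7A11, -0.76 to 0.18 for SLC7A1, -0.29 to 0.88 for SLC7A6, -0.08 to 1.00 for SLC38A1 and -0.32 to 0.85 for SLC38A2. SLC6A9, SLC1A5, SLC7A5, SLC3A2 and SLC1A4 kept a negative sign in each of the 14 alternatives. In the fits of all 4 libraries, calls ranged from 0 to 6 and 0 to 4 in the 2 lists of other carriers. The range was 0 to 23 for the amino acid response and 0 to 7 for cystine and glutathione. It was 0 to 7 for NRF2 targets and 0 to 11 for amino acid sensing. In the same fits 0 to 30.8% of all tested features were called. Leaving out 1 siControl library widened each of these ranges, also that of all features.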

Other observations

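Amino acids brought in by these transporters are sensed at the lysosome by the machinery that switches on mTORC1, the kinase complex that drives protein synthesis. Of 29 tested genes of that machinery, 3 rose, 1 fell and 25 did not pass, against 11.3% of all tested features rising and 1.30% falling. The median difference was 0.47, against 0.50 for all features. Calls in this list rose in number without either siControl library and fell without either siCNOT4 library, as did the calls over all tested features. The kinase MTOR rose from 36.0 and 17.3 TPM in siControl to 77.8 and 79.0 TPM in siCNOT4 (log2 difference 1.61, SE 0.34, limma adjusted p = 0.0423). Its partner MLST8 fell from 131 and 121 to 47.5 and 47.6 TPM (log2 difference -1.38, SE 0.17, limma adjusted p = 0.0227). The Rag GTPases RRAGA and RRAGD, which recruit mTORC1 to the lysosome, rose from 63.8 and 51.8 to 118 and 123 TPM and from 48.1 and 43.2 to 79.1 and 80.3 TPM (limma adjusted p = 0.0294 and 0.0439). The lysosomal carrier SLC38A9, an arginine sensor of the same machinery named here after its values were seen, had 29.8 and 19.1 against 51.8 and 45.1 TPM and did not pass (limma adjusted p = 0.0596).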
